A study of Mus musculus with 12 samples.

Results

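The genes described here encode subunits of respiratory complexes II to V that are made from nuclear DNA. They were taken as all rows of the raw count matrix whose Ensembl identifier has a protein-coding mouse symbol that is Sdha to Sdhd or Cyc1 or begins with Uqcr, Cox4 to Cox8 or Atp5, without pseudogenes. The rule found 47 of 27504 genes: 4 of complex II, 9 of complex III, 17 of complex IV and 17 of complex V. Of these, 46 passed the filter on low counts; the exception was Cox7b2, which had 8 counts in all libraries together. The rule goes by symbol, so a subunit with a symbol of another form is left out. The symbols also reach beyond the complexes, because Cox7a2l encodes a protein that links complexes III and IV in supercomplexes. Likewise Atp5s is not a core part of ATP synthase.

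Hearts of wild-type C57BL/6 mice at postnatal day 45 gave 12 RNA-seq libraries in 6 groups of 2. Angiotensin II, a hormone that raises blood pressure and enlarges the heart, was used to make a hypertrophy model (AngII arm, numbers 1 to 6), and sham-operated mice served as its control (sham arm, numbers 7 to 12). Both arms received gastrodin, a plant glucoside from an orchid used in Chinese medicine, by the gastric route for 7 days at 0 (vehicle only), 5 or 50 mg/kg/day. How much angiotensin II was given, and for how long, was not stated. The labels do not tie libraries to individual animals, so the p-values here reflect spread among libraries that could be technical in part.

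Complex II passes electrons from succinate to ubiquinone, complex III passes them on to cytochrome c, and complex IV hands them to oxygen. Complexes III and IV pump protons across the inner mitochondrial membrane, and complex V, the ATP synthase, lets the protons back to make ATP. Heart muscle is packed with mitochondria and depends on this chain for its ATP. Complexes III, IV and V hold subunits of both genomes, with the catalytic core of complex IV made in the mitochondrion, while every subunit of complex II comes from the nucleus. Several subunits of complex IV exist as a form found in heart and skeletal muscle and a form found in most tissues.

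Libraries held 63.5 to 78.6 M counts, most of them mitochondrial transcripts, and 6.34 to 20.3% of the counts fell in nuclear genes outside ribosomal RNA and nuclear copies of mitochondrial DNA. That nuclear share was largest in AngII libraries number 3 (20.3%), number 6 (18.7%) and number 1 (14.0%), against at most 10.4% in any other library. All 10 cardiomyocyte markers were measured, with a summed level of 5330 to 9940 CPM in AngII and 3360 to 6910 CPM in sham. CPM are counts scaled to a common library size after adjustment by TMM, which is a method that assumes most genes do not differ. Sham 50 mg number 12 had 10.8% of its counts in ribosomal RNA loci.

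The 47 members together took 3.62 ± 0.323% of the nuclear counts in AngII hearts and 3.6 ± 0.607% in sham hearts (SD, n = 6 each). In AngII hearts the share was 3.51 and 3.53% with vehicle, 3.81 and 3.63% with 5 mg gastrodin, and 3.13 and 4.09% with 50 mg. In sham hearts it was 4.40 and 3.75% with vehicle, 4.12 and 3.36% with 5 mg, and 3.26 and 2.74% with 50 mg. The arms thus overlapped, and the lowest shares were in sham hearts at 50 mg and AngII 50 mg number 5.

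Levels between genes were compared in the deposited TPM, which are per length of transcript, as medians over the 12 libraries. The highest were Atp5e, the epsilon subunit of ATP synthase, at 212 TPM (range 156 to 815) and Atp5h, subunit d of its stalk, at 207 TPM (164 to 572). Next came 2 muscle forms of complex IV subunits, Cox8b at 199 TPM (135 to 938) and Cox7a1 at 186 TPM (118 to 909), and the common form Cox4i1 at 182 TPM (70.7 to 525). Atp5h is uncertain because a near-identical copy, Gm10250, is in the matrix. The order of the leading 5 changed between libraries and is not resolved. Among them Cox7a1 was highest in AngII number 3 (909 TPM), Cox8b in number 6 (938 TPM) and Cox4i1 in sham number 7 (213 TPM). In sham number 8 it was Atp5e (263 TPM). The order of all members also rests on the lengths behind the TPM. In CPM, Atp5b had means of 263 in AngII and 332 in sham, against 136 and 104 for Atp5e. The complex II genes stood lower: Sdhb, the iron-sulfur subunit, had 66.8 TPM (37.6 to 207), Sdhd 25.5 TPM, Sdha, the flavoprotein that oxidises succinate, 17.6 TPM, and Sdhc 9.96 TPM. Sdhc and Sdhd encode its membrane anchors. The lowest measured members were Cox4i2, a form of subunit IV known from lung and hypoxia, at 2.58 TPM, Atp5s at 1.62 TPM, and Cox6b2, a testis form, at 0.771 TPM.

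Promoter windows of 300 bases (250 before and 50 after the start of transcription, RefSeq on GRCm38.p6) were found by symbol for 34 of the 47 members, in 37 windows. Not matched were Atp5a1, Atp5f1, Atp5mpl, Atp5s, Cox4i1, Cox4i2, Cox6a2, Cox6c, Cyc1, Sdhc, Uqcrb, Uqcrc2 and Uqcrq. Shown first are the windows of Uqcrc1 and Cox5a, which moved in opposite directions in AngII hearts, and then those of Cox7a1 and Cox7a2, the pair whose ratio separated the arms. Capitals mark matches to words of transcription factors that act on respiratory genes, searched on both strands.
Uqcrc1, chr9:108936398-108936697, plus strand: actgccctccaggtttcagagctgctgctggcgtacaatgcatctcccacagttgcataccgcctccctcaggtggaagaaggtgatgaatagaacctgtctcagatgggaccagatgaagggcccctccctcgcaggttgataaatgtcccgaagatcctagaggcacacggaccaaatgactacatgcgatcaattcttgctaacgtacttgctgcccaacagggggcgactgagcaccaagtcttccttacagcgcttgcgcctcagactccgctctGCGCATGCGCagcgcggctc
Cox5a, chr9:57520982-57521281, plus strand: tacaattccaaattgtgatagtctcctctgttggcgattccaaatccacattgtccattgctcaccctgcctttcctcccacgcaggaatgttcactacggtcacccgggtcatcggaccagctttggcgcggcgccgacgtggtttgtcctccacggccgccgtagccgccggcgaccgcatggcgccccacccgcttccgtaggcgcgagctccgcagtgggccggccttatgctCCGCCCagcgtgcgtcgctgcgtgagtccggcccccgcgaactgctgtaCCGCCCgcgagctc
Cox7a1, chr7:30183921-30184220, plus strand: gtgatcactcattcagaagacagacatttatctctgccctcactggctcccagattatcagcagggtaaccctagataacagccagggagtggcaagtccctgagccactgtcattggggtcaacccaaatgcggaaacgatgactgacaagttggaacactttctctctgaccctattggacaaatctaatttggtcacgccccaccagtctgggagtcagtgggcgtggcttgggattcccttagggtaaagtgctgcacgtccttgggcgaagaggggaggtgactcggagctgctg
Cox7a2, chr9:79759804-79760103, minus strand: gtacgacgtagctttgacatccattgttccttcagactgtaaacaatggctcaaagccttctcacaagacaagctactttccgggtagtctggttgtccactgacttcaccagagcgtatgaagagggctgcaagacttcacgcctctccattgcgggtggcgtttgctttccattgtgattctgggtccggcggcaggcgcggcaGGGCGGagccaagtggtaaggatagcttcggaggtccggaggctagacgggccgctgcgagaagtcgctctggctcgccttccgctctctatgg

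The capitals in Uqcrc1 are the word GCGCATGC of NRF1 (nuclear respiratory factor 1) on both strands, overlapping each other, from base 281 of the window. In Cox5a and Cox7a2 they are the word GGGCGG of Sp factors, on the opposite strand at bases 238 and 287 in Cox5a and on the strand shown at base 207 in Cox7a2. The Cox7a1 window held none of the words searched. Over all member windows the NRF1 word was in 7 of 37 (18.9%, against 2.71% of all 32851 windows), in Uqcrc1, Uqcr11, Sdhb, Cox6a1, Atp5g2, Atp5k and Atp5l. The word CCGGAAG of GABPA was in 12 of 37 (32.4% against 8.86%) and the word AAGGTCA of the oestrogen-related receptors in 5 (13.5% against 4.72%). The word AAGATGGC of YY1 was in 2 (5.41% against 2.75%) and GGGCGG in 12 (32.4% against 35.7%). None held the MEF2 word, which was in 0.557% of all windows. No word holds another, and a match describes the letters only.

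AngII was compared with sham over all 3 doses, with 6 libraries in each arm, to ask which subunit genes differ in the model. Of 46 members tested, 2 were higher, Uqcrc1 of complex III and Atp5d of complex V, while 13.4% of all genes tested were called higher. Likewise 2 were lower, Cox5a and Cox7a2l, both of the complex IV group, while 7.53% of all genes were called lower. A gene was called at an adjusted p under 0.05 in edgeR's quasi-likelihood test over all 16723 genes tested. The members' median log2 fold change was -0.08, beside 0.10 over all genes tested, with 22 members positive and 24 negative. Leaving out 1 library gave medians of -0.14 to 0.06, and the sign turned without AngII number 5 or sham number 9. By complex the medians were -0.27 for complex II, -0.07 for complex III, 0.10 for complex IV and -0.17 for complex V. On the deposited TPM, limma called 1 member higher and 0 lower with a pseudocount of 1, and 6 higher and 0 lower with 0.1, where 8.6 and 16.7% of all genes were called higher. There the members' median was 0.49 and 0.52, beside 0.22 and 0.51 over all genes, so directions below hold for TMM scaling. Bulk tissue cannot tell fewer cells of a type apart from less RNA per cell.

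**Figure D1:**
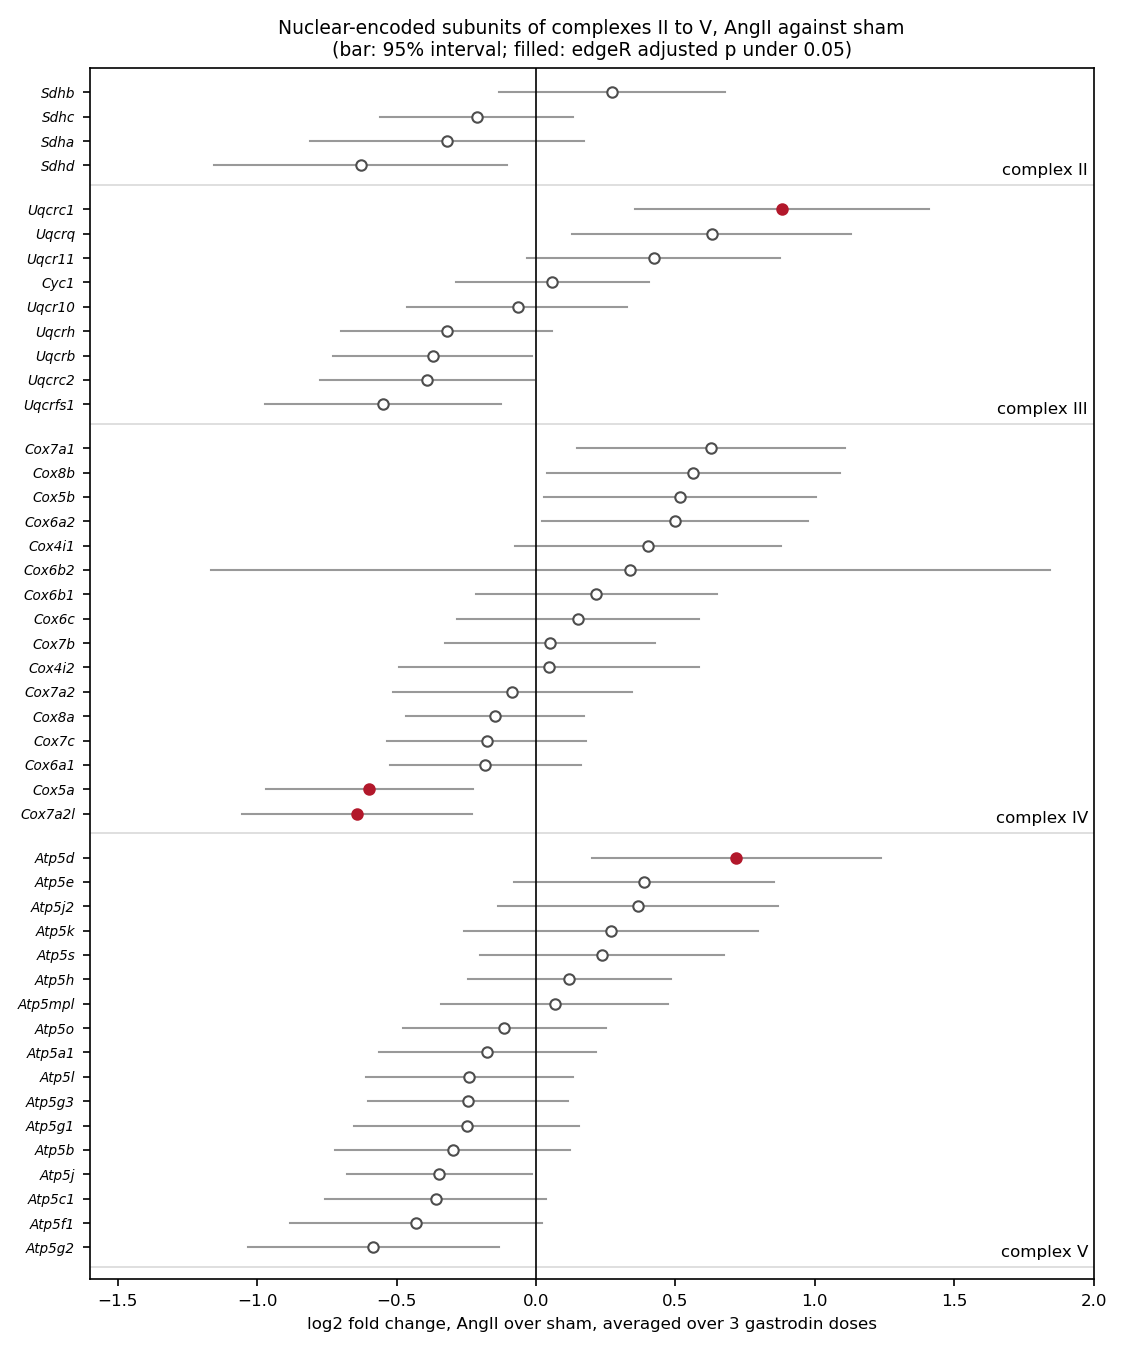
Log2 fold change of AngII over sham, averaged over the 3 gastrodin doses, for the 46 members tested, by complex and with 95% intervals. Filled points mark the 4 members called, Uqcrc1 (0.88), Atp5d (0.72), Cox5a (-0.60) and Cox7a2l (-0.64); members of each complex lie on both sides of 0.

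Uqcrc1 encodes core protein 1 of complex III, a large subunit on its matrix side. Its gene lies on chromosome 9 at 108936633 to 108949623 (GRCm38, plus strand). It had 125 and 91.6 CPM in AngII vehicle hearts, 155 and 66.3 CPM at 5 mg and 89.1 and 170 CPM at 50 mg, against 95.5 and 77.0, 75.1 and 51.2, and 44.1 and 47.0 CPM in the matching sham groups. AngII libraries number 1, 3 and 6 lay above every sham library, and numbers 2, 4 and 5 lay within the sham range. The mean was 116 ± 40.8 CPM in AngII and 65.0 ± 20.6 CPM in sham (SD, n = 6 each), a log2 fold change of 0.88 ± 0.24 SE (edgeR adjusted p = 0.024). Left out one at a time, libraries gave 0.66 to 1.051 (edgeR adjusted p 0.00133 to 0.0729), and the call was lost without AngII number 1 or 6 or without sham number 8, 10, 11 or 12.

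Atp5d encodes the delta subunit in the stalk of ATP synthase that turns against the catalytic head. Its gene is on chromosome 10 at 80138632 to 80145818 (plus strand). It had 141 and 79.2 CPM in AngII vehicle, 144 and 72.3 CPM at 5 mg and 80.3 and 147 CPM at 50 mg, against 89.2 and 80.3, 89.1 and 62.6, and 52.3 and 42.6 CPM in the matching sham groups. Again numbers 1, 3 and 6 stood above all sham libraries, at 141 to 147 CPM, and the other AngII libraries were within the sham range. The means of 111 ± 36.8 CPM in AngII and 69.4 ± 19.8 CPM in sham (SD, n = 6 each) gave 0.72 ± 0.24 SE on the log2 scale (edgeR adjusted p = 0.0496). With 1 library left out it was 0.55 to 0.86 (edgeR adjusted p 0.00677 to 0.155); the call held only without AngII number 2, 4 or 5. Atp5d shares exon bases with Cbarp on the opposite strand, and the strand of the libraries is not known.

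Cox5a encodes a matrix-side subunit of complex IV that can bind a thyroid hormone metabolite. Its gene is on chromosome 9 at 57521274 to 57532426 (plus strand). AngII hearts had 28.7 and 33.1 CPM with vehicle, 24.4 and 38.0 CPM at 5 mg and 35.6 and 32.0 CPM at 50 mg, against 73.3 and 53.7, 52.8 and 45.1, and 37.2 and 35.4 CPM in sham. All AngII libraries lay below the sham libraries at 0 and 5 mg, and the arms met at 50 mg. The means were 32.0 ± 4.88 CPM in AngII and 49.6 ± 13.9 CPM in sham (SD, n = 6 each), so that Cox5a fell by 0.60 ± 0.17 SE on the log2 scale (edgeR adjusted p = 0.0281). With 1 library left out the log2 fold change was -0.71 to -0.48 (edgeR adjusted p 0.00415 to 0.093), and the call held only without AngII number 2 or 4 or sham number 8 or 10. Cox5a shares exon bases with the predicted gene Gm26631 on the opposite strand. On the deposited TPM, whose total counts mitochondrial transcripts too, its sign turned: limma on log2(TPM + 1) and log2(TPM + 0.1) gave 0.003 (adjusted p = 0.996 on both).

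The gene of Cox7a2l is on chromosome 17 at 83501918 to 83517330 (minus strand). It had 23.9 and 28.5 CPM in AngII vehicle, 18.4 and 38.5 CPM at 5 mg and 28.1 and 26.3 CPM at 50 mg, against 53.6 and 52.2, 44.9 and 43.1, and 36.2 and 29.8 CPM in sham. Of the AngII libraries only number 4 reached into the sham range. The means of 27.3 ± 6.63 CPM in AngII and 43.3 ± 9.16 CPM in sham (SD, n = 6 each) gave a log2 fold change of -0.64 ± 0.19 SE (edgeR adjusted p = 0.0325). With 1 library left out it was -0.84 to -0.48 (edgeR adjusted p 0.001 to 0.0978), and the call held only without AngII number 2 or 4.

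**Figure D2:**
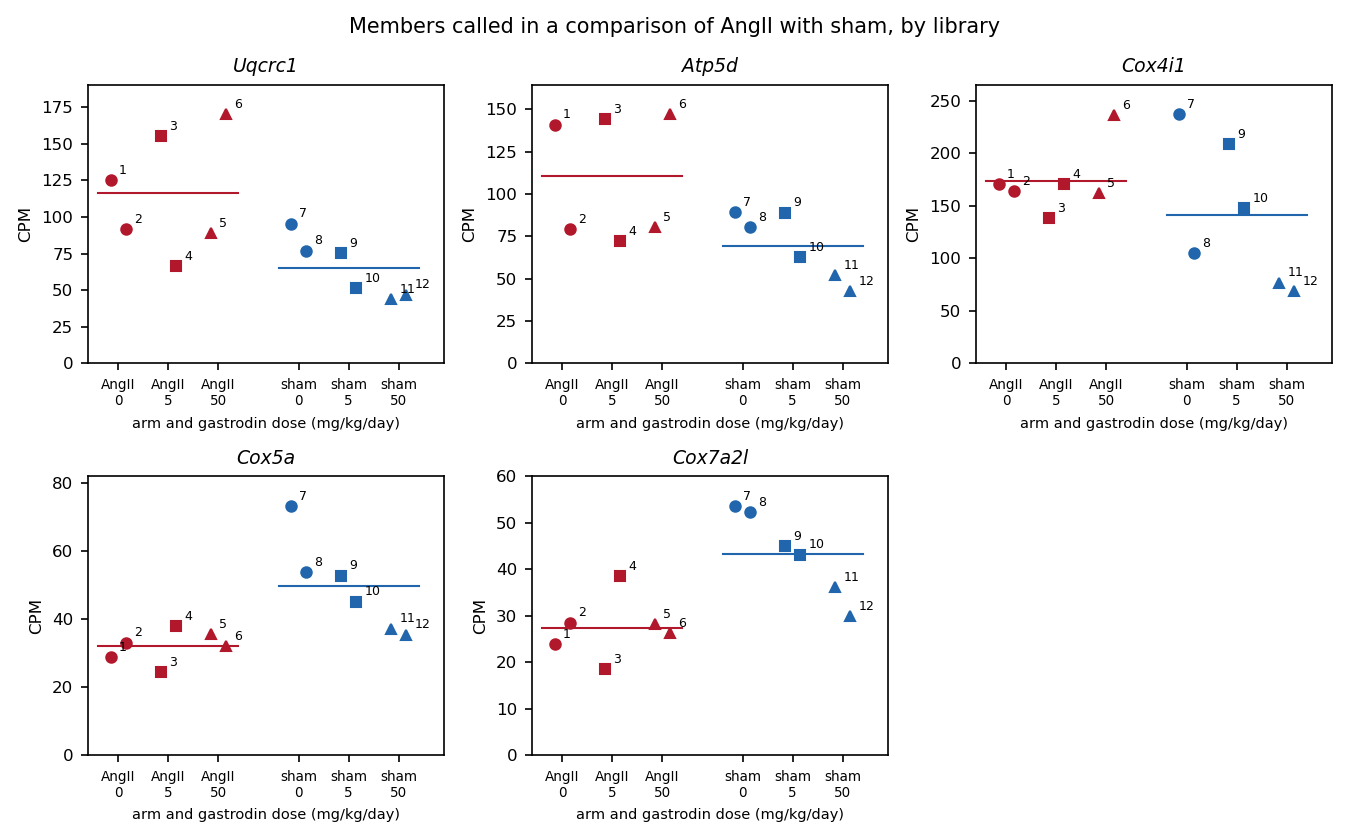
CPM of the 5 members called in a comparison of AngII with sham, by arm and gastrodin dose; points are libraries with their numbers, and lines are arm means. Uqcrc1 and Atp5d are high in AngII numbers 1, 3 and 6, Cox5a and Cox7a2l are lower in AngII than in sham vehicle libraries, and Cox4i1 is lowest in sham at 50 mg (77.0 and 68.8 CPM).

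No member separated the arms: for each of the 46, at least 1 AngII library overlapped the range of the sham libraries, where 7.36% of all genes tested had no overlap. Within the AngII arm the members showed opposite patterns. In 15 of 46 (32.6%, against 12.7% of all genes tested) numbers 1, 3 and 6, the libraries of largest nuclear share, were the 3 highest of 6. These included Uqcrc1, Uqcrq, Cox5b, Cox6a2, Cox7a1, Cox8b, Atp5d and Atp5e. In 11 (23.9%, against 13.5%) the same libraries were the 3 lowest, among them Sdha, Sdhd, Uqcrc2, Uqcrfs1, Cox5a, Cox7a2l, Atp5b and Atp5g2. With numbers 1, 3 and 6 left out, edgeR called no member higher or lower (3.88% of all genes called), 3 had an unadjusted p under 0.05, where 19.2% of all genes did, and the members' median was -0.13, beside -0.04 over all genes.

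**Figure D3:**
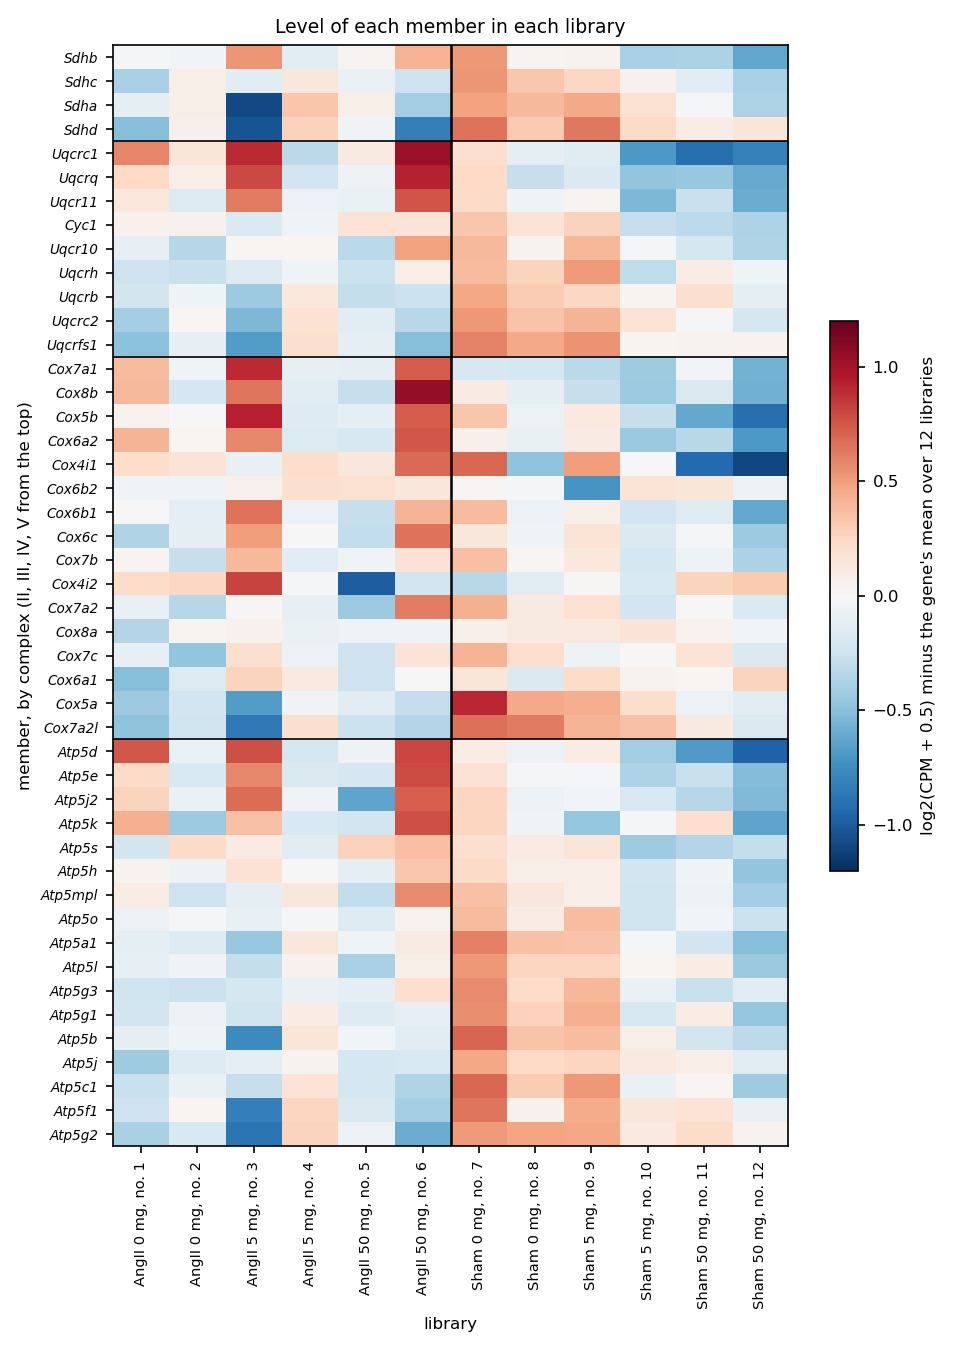
Level of each of the 46 members in each of the 12 libraries, as log2(CPM + 0.5) minus the gene's own mean, with AngII libraries left of sham and members ordered by complex and fold change. AngII numbers 3 and 6 are red in Uqcrc1, Uqcrq, Cox7a1, Cox8b and Atp5d and blue in Sdha, Sdhd, Uqcrfs1 and Atp5g2, while in sham most members are red in number 7 and blue in number 12.

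The other core subunits did not pass the test. Sdha had a mean of 50.0 ± 15.1 CPM in AngII and 63.3 ± 13.5 CPM in sham, and in AngII number 3 it was as low as 25.5 CPM. Sdhb had 91.5 ± 18.2 CPM in AngII and 77.4 ± 23.5 CPM in sham. Their log2 fold changes were -0.32 ± 0.23 and 0.27 ± 0.19 SE (edgeR adjusted p = 0.327 and 0.305).

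In complex III, Uqcrfs1, the Rieske iron-sulfur protein that takes electrons from ubiquinol, had 54.7 ± 12.8 CPM in AngII and 80.7 ± 15.3 CPM in sham (-0.55 ± 0.20 SE, edgeR adjusted p = 0.0617). Of its 6 AngII libraries, 5 lay below the sham minimum. Cyc1, cytochrome c1, had 80.8 ± 7.16 CPM in AngII and 78.4 ± 17.5 CPM in sham (0.06 ± 0.16 SE, 95% interval -0.29 to 0.40).

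In complex V, Atp5a1 and Atp5b encode the alpha and beta subunits of the catalytic head. Atp5a1 had 233 ± 32.3 CPM in AngII and 270 ± 75.4 CPM in sham (-0.17 ± 0.18 SE, edgeR adjusted p = 0.509). Atp5b had 263 ± 49.7 CPM in AngII and 332 ± 88.6 CPM in sham (-0.30 ± 0.20 SE, edgeR adjusted p = 0.284). Both overlapped between the arms in most libraries.

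The membrane ring of ATP synthase is built from subunit c, one mature protein encoded by Atp5g1, Atp5g2 and Atp5g3. Of their summed TPM, Atp5g3 gave 65.0 ± 4.69% in AngII and 61.9 ± 2.90% in sham (SD, n = 6 each). Atp5g1 gave 17.4 ± 1.14% in AngII and 16.5 ± 1.90% in sham, and Atp5g2 17.7 ± 4.11% in AngII and 21.6 ± 1.84% in sham. In CPM, which are not scaled to length, Atp5g1 was instead above Atp5g3. Atp5g1 had 170 ± 14.9 CPM in AngII and 205 ± 51.8 CPM in sham. Atp5g3 had 97.8 ± 12.4 CPM in AngII and 117 ± 27.3 CPM in sham. The order of these genes thus rests on the lengths behind the TPM. Atp5g2 had 27.0 ± 7.64 CPM in AngII and 40.7 ± 5.74 CPM in sham (-0.58 ± 0.21 SE, edgeR adjusted p = 0.062), and 5 of 6 AngII libraries were below the sham minimum. It is uncertain, since near-identical copies in the genome hold part of its sequence.

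Of 34 assembly factors of complexes II to V, 1 rose and 4 fell in AngII, where 13.4% of all genes tested rose and 7.53% fell. The median log2 fold change of the 34 was -0.30, beside 0.10 over all genes. Cox10, a farnesyltransferase that makes the haem of complex IV, rose to 10.4 ± 2.86 CPM in AngII, against 5.59 ± 1.96 CPM in sham (0.94 ± 0.20 SE, edgeR adjusted p = 0.00749). Coa3, Cox14 and Coa5, which act in building complex IV, and Tmem70, which acts in building complex V, fell by 0.62, 0.55, 0.77 and 0.62 on the log2 scale (edgeR adjusted p 0.02 to 0.0483). Coa3 and Cox14 act together on the mitochondrial subunit Cox1 as it is made.

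Of 17 genes for mobile carriers and ATP export tested, 1 rose, Coq2, an enzyme of ubiquinone synthesis, at 12.7 ± 2.1 CPM in AngII and 8.71 ± 1.65 CPM in sham (edgeR adjusted p = 0.027); their median was -0.09. Of 14 regulators of respiratory genes, 3 rose and 1 fell. For both lists the shares of all genes tested were 13.4% rising and 7.53% falling. Polrmt, the mitochondrial RNA polymerase, rose to 5.76 ± 1.31 CPM in AngII, against 2.03 ± 0.796 CPM in sham (1.56 ± 0.24 SE, edgeR adjusted p = 0.00193). Esrra, an oestrogen-related receptor, and Ppargc1b, a coactivator of it, rose by 0.83 and 1.16 on the log2 scale (edgeR adjusted p = 0.0152 and 0.0151). Tfam, which packs mitochondrial DNA and helps to start its transcription, fell to 2.61 ± 0.799 CPM in AngII, against 4.87 ± 0.619 CPM in sham (-0.91 ± 0.22 SE, edgeR adjusted p = 0.0138).

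None of the 6 mitochondrially encoded subunits of complexes III to V passed the test, where 20.9% of all genes did. All 6 fold changes were negative, with a median of -0.56. Their summed level was 212000 to 643000 CPM in AngII and 423000 to 774000 CPM in sham. It was lowest in AngII numbers 3, 6 and 1, the libraries of largest nuclear share. Most counts are mitochondrial, so a larger nuclear share goes with a smaller mitochondrial one, and this is not a separate observation.

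Averaged over doses, marker genes of several cell types passed the test in AngII against sham. Of 10 cardiomyocyte genes 5 rose, of 6 endothelial genes 3 rose, of 6 smooth muscle and pericyte genes 4 rose, and of 5 red cell genes all rose. Of 6 fibroblast genes 4 fell and of 4 macrophage genes 1 fell. Over all genes tested 13.4% rose and 7.53% fell. Summed levels were 56.6 to 89.8 CPM in AngII and 63.7 to 229 CPM in sham for fibroblast genes, and 63.7 to 144 CPM in AngII and 47.7 to 68.9 CPM in sham for endothelial genes. For smooth muscle and pericyte genes they were 106 to 321 CPM in AngII and 77.5 to 162 CPM in sham, for red cell genes 1030 to 3350 CPM in AngII and 290 to 1740 CPM in sham, and for macrophage genes 12.4 to 36.1 CPM in AngII and 12.6 to 54.3 CPM in sham. Fat, skeletal muscle, atrial muscle and lung genes summed to at most 8.81 CPM in any library; 1 atrial gene and the lung gene Scgb1a1 rose. In vehicle hearts alone none of the cardiomyocyte, fibroblast, endothelial, smooth muscle, red cell or macrophage genes passed, where 0.0598% of all genes did. There 4 of 5 red cell genes were negative. In sham hearts red cell genes summed to 1740 and 1310 CPM with vehicle, 761 and 362 CPM at 5 mg and 290 and 608 CPM at 50 mg. The part of cell types in the members' values was not tested.

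The ratio of the muscle form of a complex IV subunit to its partner was then compared within each library, since it does not depend on how libraries are scaled. The ratio of Cox7a1, the heart and skeletal muscle form of subunit VIIa, to Cox7a2, its form in most tissues, separated the arms. It was 8.06 and 7.16 in AngII vehicle, 10.8 and 5.86 at 5 mg and 7.33 and 6.30 at 50 mg, against 3.78 and 4.66, 4.11 and 5.13, and 5.67 and 4.44 in the matching sham groups. All 6 AngII libraries were above all 6 sham libraries. On the log2 scale the mean was 2.89 ± 0.31 in AngII and 2.199 ± 0.213 in sham (SD, n = 6 each), a difference of 0.69 or 1.62-fold (2-sided exact permutation p = 0.00216, the smallest that 924 splits allow; 0.0108 adjusted over 5 pairs). With each library left out in turn the difference was 0.59 to 0.76 and the adjusted exact permutation p at most 0.0216. By dose it was 0.86 with vehicle, 0.79 at 5 mg and 0.44 at 50 mg. Neither gene passed on its own: Cox7a1 had 123 ± 39.4 CPM in AngII and 79.4 ± 10.4 CPM in sham (0.63 ± 0.22 SE, edgeR adjusted p = 0.0607), and Cox7a2 27.5 ± 7.99 CPM in AngII and 29.1 ± 5.11 CPM in sham (-0.09 ± 0.20 SE, edgeR adjusted p = 0.796).

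The ratio of Cox6a2 to Cox6a1, the muscle and common forms of subunit VIa, was 13.3 and 7.94 in AngII vehicle, 8.57 and 5.72 at 5 mg and 7.27 and 11.6 at 50 mg, against 6.54 and 7.41, 6.39 and 4.93, and 5.42 and 3.56 in sham. AngII exceeded the sham maximum in 4 of 6 libraries, and the log2 difference of 0.65 did not pass (2-sided exact permutation p = 0.0216, 0.0541 adjusted over 5 pairs). The adjusted exact permutation p was 0.0162 to 0.119 with 1 library left out, and it passed without AngII number 4, AngII number 5 or sham number 8. Cox8b over Cox8a, the muscle and common forms of subunit VIII, ranged from 5.49 to 14.0 in AngII with a highest value in number 6, and from 4.29 to 6.67 in sham. The 3 highest were AngII numbers 1, 3 and 6, and the log2 difference was 0.65 (exact permutation p = 0.0368, 0.0613 adjusted). Here the adjusted exact permutation p was 0.0397 to 0.126 with 1 library left out, and it passed without AngII number 5. The muscle forms Cox6a2 and Cox8b had 197 ± 54.8 and 123 ± 48.7 CPM in AngII, against 141 ± 29.3 and 83.4 ± 14.1 CPM in sham (edgeR adjusted p = 0.122 and 0.112). Their partners Cox6a1 and Cox8a had 18.7 ± 3.65 and 22.0 ± 2.09 CPM in AngII, against 21 ± 2.3 and 24.4 ± 1.16 CPM in sham (edgeR adjusted p = 0.427 and 0.5). Cox6a2 shares exon bases with Itgad on the opposite strand.

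For 2 other pairs the ratio did not pass. Cox4i2 over Cox4i1 ranged from 0.00534 to 0.0312 in AngII and from 0.00699 to 0.0418 in sham (log2 difference -0.45, exact permutation p = 0.426, 0.533 adjusted). Atp5g1 over Atp5g3 ranged from 0.216 to 0.304 in AngII and from 0.213 to 0.343 in sham (0.01, exact permutation p = 0.97, unchanged by adjustment). Without AngII numbers 1, 3 and 6 the Cox7a1 to Cox7a2 difference was 0.56 (adjusted exact permutation p = 0.0595, with the raw p at the smallest value so few libraries allow), and the remaining 3 AngII libraries were above every sham library. Of the 10 cardiomyocyte markers 5 rose in AngII, where 13.4% of all genes tested did. Their summed levels overlapped, at 5330 to 9940 CPM in AngII and 3360 to 6910 CPM in sham. The part of these markers in the ratios was not tested. GC content was 55.3% for Cox7a1 and 51.9% for Cox7a2, and 52.8% for Cox6a2 and 62.7% for Cox6a1. For Cox8b it was 55.83% and for Cox8a 58.55%. The part of GC content in the ratios was not tested either.

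**Figure D4:**
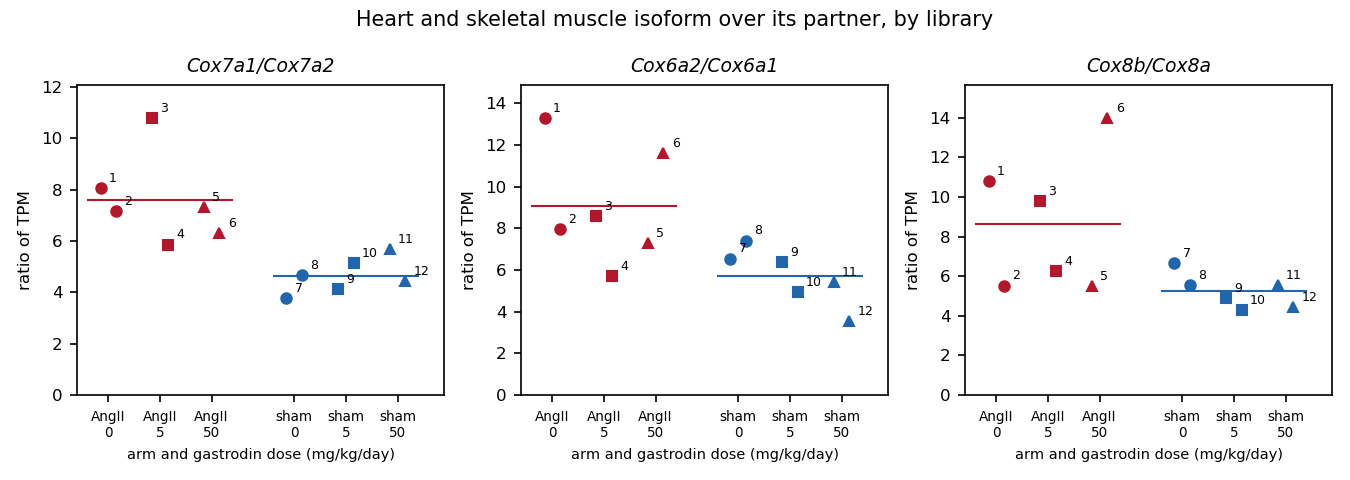
Ratio of TPM of the muscle form of a complex IV subunit to its partner in each library, by arm and gastrodin dose, with library numbers; lines are arm means of the ratio. For Cox7a1/Cox7a2 all AngII libraries (5.86 to 10.8) are above all sham libraries (3.78 to 5.67), while the other pairs overlap.

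The fold change of AngII over sham was larger in members whose longest transcript had a higher GC content. Across the 46 members Pearson's r was 0.33 and Spearman's rho 0.41, beside 0.11 and 0.18 over 16707 genes with a GC value, a description across genes that share libraries. Of the 23 members at or above the median GC of 50.2%, 14 were positive and their median was 0.07; of the 23 below it, 8 were positive and their median was -0.24. With each library's trend on GC removed, edgeR called 1 member higher, Uqcrc1 (0.79), and 3 lower, Cox7a2l (-0.60), Cox6a1 (-0.58) and Atp5g2 (-0.94). Cox5a and Atp5d did not pass in that fit.

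**Figure D5:**
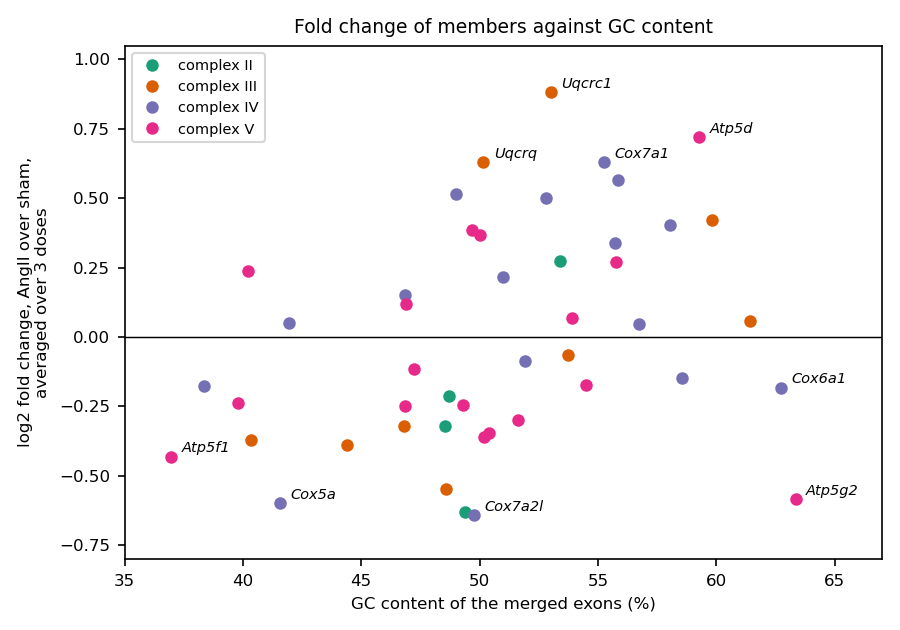
Log2 fold change of AngII over sham, averaged over 3 doses, against the GC content of each gene's longest transcript for the 46 members. Points are coloured by complex. The axis label names merged exons, but the values are those of the longest transcript. Atp5d and Cox7a1 lie high at a GC above 55%, Cox5a and Atp5f1 lie low at a GC below 42%, and Atp5g2 and Cox6a1 depart from the trend at over 62%.

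AngII was next compared with sham at each dose, with 2 libraries in each group. In vehicle hearts edgeR called no member, where 0.0598% of all genes were called; 6 of 46 members had an unadjusted p under 0.05, where 16.5% of all genes did. The DESeq2 Wald test called 2 members, Cox5a and Cox7a2l, and 4.29% of all genes. Without AngII number 3 or number 4, which enter only through the shared spread, edgeR called 2 members, with 2.69 and 2.94% of all genes called. Of the 46 members 38 were negative, with a median of -0.32 beside 0.06 over all genes; the median was -0.18 without sham number 7 and -0.49 without sham number 8. The smallest p belonged to Cox5a (-1.04 ± 0.30 SE, edgeR adjusted p = 0.164), Cox7a2l (-1.01 ± 0.33 SE, 0.196) and Atp5j, coupling factor 6 of ATP synthase (-0.64 ± 0.27 SE, 0.266). At 5 mg edgeR called no member and 0% of all genes; 2 members had an unadjusted p under 0.05, where 12% of all genes did, and DESeq2 called none. The median was -0.08 beside 0.09, and it was 0.15 without sham number 9 and -0.20 without sham number 10. The smallest p belonged to Cox7a1 (0.86 ± 0.39 SE, edgeR adjusted p = 0.404), Cox5a (-0.65 ± 0.30 SE) and Uqcrc1 (0.81 ± 0.42 SE). Without AngII number 4 the 5 mg group held number 3 alone, the library of largest nuclear share. The members' median was then -0.06, beside 0.08 over all genes.

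At 50 mg 1 member was higher in AngII, Cox4i1, the regulatory subunit IV of complex IV, where 5.42% of all genes were called in either direction. It had 162 and 236 CPM in AngII, against 77.0 and 68.8 CPM in sham, so the groups did not overlap (1.45 ± 0.39 SE, edgeR adjusted p = 0.0486). In vehicle hearts it had 171 and 164 CPM in AngII, against 237 and 105 CPM in sham, and at 5 mg 138 and 171 CPM in AngII, against 209 and 148 CPM in sham. The sham libraries at 50 mg were thus the 2 lowest of all 12. With 1 library left out the log2 fold change at 50 mg was 1.19 to 1.71 (edgeR adjusted p 0.0173 to 0.247), and the call held only without AngII number 3 or 4 or sham number 7 or 8. Uqcrc1 (1.51 ± 0.43 SE, edgeR adjusted p = 0.0585) and Atp5d (1.26 ± 0.42 SE, 0.0931) followed, and 31 of 46 members were positive, with a median of 0.27 beside 0.03 over all genes. That median was 0.03 without AngII number 6 and 0.15 without sham number 12. In the same libraries cardiomyocyte markers summed to 8420 and 9940 CPM in AngII and 4090 and 3360 CPM in sham, and 4 of 10 rose. Red cell markers summed to 1590 and 3350 CPM in AngII and 290 and 608 CPM in sham, and 5 of 5 rose. Fibroblast markers summed to 59.7 and 65.0 CPM in AngII and 229 and 220 CPM in sham, and 5 of 6 fell. The part of these cell types in the result was not tested. Without AngII number 3 edgeR called 5 members at 50 mg, and without number 4 it called 4, with 11.3% of all genes called in both fits. Cox4i1 (chromosome 8, 120668222 to 120674207, plus strand) shares exon bases with Emc8 on the opposite strand.

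Gastrodin was compared with vehicle within each arm. In AngII hearts edgeR called no member at 5 mg (0.00598% of all genes) or at 50 mg (0.012% of all genes), and DESeq2 called none. An unadjusted p under 0.05 was found for 0 members at 5 mg, against 1.74% of all genes, and for 1 at 50 mg, against 1.88%. The medians were 0.11 at 5 mg and 0.15 at 50 mg, beside 0.02 and 0.00 over all genes. At 5 mg the median was 0.18 without AngII number 4, and at 50 mg it was 0.35 without AngII number 5 and -0.03 without number 6. At 5 mg the smallest p belonged to Cox6a1 (0.54 ± 0.28 SE, edgeR adjusted p = 1), Cox6c (0.51 ± 0.35 SE) and Cox5b (0.48 ± 0.39 SE). At 50 mg they were Cox4i2 (-1.001 ± 0.433 SE, edgeR adjusted p = 1), at 0.845 and 1.77 CPM with 50 mg and 2.61 and 2.66 CPM with vehicle, then Cox6c (0.50 ± 0.35 SE) and Cox7a2 (0.40 ± 0.34 SE).

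In sham hearts edgeR also called no member at 5 mg (0.0179% of all genes) or at 50 mg (0.149% of all genes), and DESeq2 called none. An unadjusted p under 0.05 was found for 0 members at 5 mg, against 4.12% of all genes. At 50 mg it was found for 9 of 46, against 9.22% of all genes, and for 0 without sham number 7, 1 without sham number 12 and 15 without AngII number 3. At 50 mg 43 of 46 members were negative, with a median of -0.50 beside 0.00 over all genes; at 5 mg 42 were negative, with a median of -0.23 beside 0.00. Without 1 library at a time the median at 50 mg was -0.61 to -0.34, and at 5 mg it was -0.41 without sham number 9, -0.37 without number 8, -0.12 without number 7 and -0.06 without number 10. At 50 mg 17 of 17 carrier and ATP export genes were also negative (median -0.53), as were 10 of 10 cardiomyocyte markers (-0.70). Regulators were negative in 11 of 14 (-0.43), assembly factors in 27 of 34 (-0.22) and mitochondrially encoded subunits in 5 of 6 (-0.06). At 5 mg the counts were 16 of 17 for carriers and export, 10 of 10 for cardiomyocyte markers and 11 of 14 for regulators. They were 23 of 34 for assembly factors and 0 of 6 for mitochondrially encoded subunits. Cox4i1 was at 77.0 and 68.8 CPM with 50 mg and 237 and 105 CPM with vehicle (-1.23 ± 0.39 SE, edgeR adjusted p = 0.334). Atp5a1 was at 209 and 172 CPM with 50 mg and 373 and 314 CPM with vehicle (-0.85 ± 0.31 SE, edgeR adjusted p = 0.409). Cox5a was at 37.2 and 35.4 CPM with 50 mg and 73.3 and 53.7 CPM with vehicle (-0.81 ± 0.30 SE, 0.41). In the same libraries the cardiomyocyte markers summed to 4090 and 3360 CPM with 50 mg and 6910 and 5310 CPM with vehicle. Fibroblast markers summed to 229 and 220 CPM with 50 mg and 63.7 and 119 CPM with vehicle, and macrophage markers to 54.3 and 44.6 CPM with 50 mg and 12.6 and 24.4 CPM with vehicle. Red cell markers summed to 290 and 608 CPM with 50 mg and 1740 and 1310 CPM with vehicle, with all 5 negative and none past the test, and number 12 is the library with 10.8% of its counts in ribosomal RNA loci. The part of these cell types and of ribosomal RNA in the members' lower level at 50 mg was not tested. At 5 mg the smallest p belonged to Sdhb (-0.46 ± 0.32 SE, edgeR adjusted p = 1), Cox5a (-0.38 ± 0.30 SE) and Cox7c (-0.34 ± 0.29 SE).

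The 2 libraries of a sham group differed across most members as well. Number 8 was below number 7 in 44 of 46 members, number 10 below number 9 in 42 and number 12 below number 11 in 40, by medians of 0.24, 0.32 and 0.24 on the log2 scale, beside shifts of 0.00, 0.02 and 0.00 in all genes. In AngII, number 6 was above number 5 in 32 members by a median of 0.33, number 4 above number 3 in 23, and number 2 above number 1 in 21. The median absolute gap between the 2 libraries of a group was 0.24 to 0.58 for members and 0.27 to 0.43 for all genes. The median shift of sham 50 mg against vehicle, -0.50, thus compares with gaps of 0.24 between libraries of one group.

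The interaction, which asks whether gastrodin against vehicle differs between AngII and sham, called no member at 5 mg (0.00598% of all genes) or at 50 mg (0.0299% of all genes) in edgeR, and none in DESeq2. An unadjusted p under 0.05 was found for 0 members at 5 mg, against 3.07% of all genes. At 50 mg it was found for 7 of 46, against 6.93% of all genes, and for 0 without sham number 7 and 14 without AngII number 5. The interaction of 50 mg was positive in 45 of 46 members, with a median of 0.62 beside -0.02 over all genes, and that of 5 mg in 43, with a median of 0.37 beside 0.03. Leaving out 1 library gave medians of 0.45 to 0.81 at 50 mg and of 0.15 (without sham number 10) to 0.51 at 5 mg. At 50 mg the smallest p belonged to Cox4i1 (1.48 ± 0.54 SE, edgeR adjusted p = 0.639), Cox4i2 (-1.63 ± 0.61 SE, 0.639) and Sdhb (1.06 ± 0.46 SE, 0.704). At 5 mg they were Cox7c (0.68 ± 0.41 SE, edgeR adjusted p = 1), Sdhb (0.72 ± 0.46 SE) and Cox6b1 (0.64 ± 0.49 SE). The interactions share their vehicle libraries with the comparisons above and are not separate evidence.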

How the data were processed

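Hearts were flash frozen, RNA came from the RNeasy Plus Mini kit, and TruSeq libraries were read as paired ends on a NovaSeq, per the labels' protocols. The deposited matrix holds raw counts per gene. The deposited TPM are each gene's count times a constant of the gene and a factor of the library, within a relative departure of 1.2e-09. HISAT2 2.2.1, StringTie 2.1.3 and GRCm38.p6 are named in the submitters' processing notes. The counter and its strand setting were not stated. Symbols, positions, lengths and GC came from GENCODE M21, with GC taken from the longest transcript of each gene. The members and gene lists were chosen with earlier results of these data known.

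Counts were fitted in R 4.3.3 with edgeR 4.0.16 using filterByExpr, TMM, 1 mean per group over 12 libraries and 6 residual degrees of freedom (prior 6.93). The quasi-likelihood F-test was 2-sided, with Benjamini-Hochberg adjustment over 16723 genes at 0.05. Standard errors are the fold change over the root of F. The scripts were tested on simulated data. Ratios used the deposited TPM and exact permutation tests over libraries. Named genes are the members called in AngII against sham, 9 core subunits, isoform pairs with Atp5g2, elsewhere called members or the 3 smallest p, and called genes of the pathway lists; any other member named was chosen after its values were seen. Alternatives, given in the closing section, included DESeq2 1.42.0, limma 3.58.1 on log2 TPM, other filters and scalings, and each library left out. Intervals cover the spread between libraries only.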

Additional observations from a re-analysis of the deposited data

Results flagged for a closer look

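In 62 sets of 6 libraries (named members and isoform ratios, by arm), 4 had 1 library set apart from the other 5 by Dixon's criterion, where chance alone gives about 1 in 20. AngII 50 mg number 6 stood highest of the AngII libraries in Cox4i1 (236 CPM, others 138 to 171), in Cox7a2 (42.7 CPM, others 20.4 to 28.0) and in Atp5g3 (121 CPM, others 88.2 to 100). AngII vehicle number 1 stood lowest in Cox8a (18.0 CPM, others 21.9 to 23.9).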

How the results depend on the processing

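No paired analysis was possible because the labels number the libraries 1 to 12 without repeats. With 1 library left out, the count of members higher in AngII averaged over doses ran from 0 to 7 and the count lower from 0 to 10, both highest without AngII number 4 (15.9 and 12.4% of all genes there); the higher count was 0 without number 1, 6, 8, 11 or 12, and the lower count was 0 without number 1, 3, 5, 6, 7, 9, 11 or 12. With both libraries of each compared group kept, the count called ran from 0 to 2 in vehicle and from 0 to 5 at 50 mg. At most 2.94 and 11.3% of all genes were called there. At 5 mg the count changed only without AngII number 4, which left number 3 alone in its group. The averaged counts of 2 higher and 2 lower (13.4 and 7.53% of all genes) changed with the method, as did these shares. DESeq2's Wald test gave 4 and 6 (16.8 and 10.8% of all genes), and no filter gave 5 and 4 (11.7 and 5.95%). A minimum of 1 CPM in 6 libraries gave 3 and 4 (20 and 14%). The counts were 1 and 0 on log2(TPM + 1) (8.6 and 0.182%) and 6 and 0 on log2(TPM + 0.1) (16.7 and 0.252%). They were 0 and 0 with the nuclear share as a covariate (2.4 and 0.478%). With the length trend removed they were 7 and 1 (12.8 and 7.55%). Without numbers 4 and 12 the members' median was -0.09, beside 0.18 over all genes. DESeq2 size factors gave 1 higher (13.4%). Chosen after seeing the data, removal of the GC trend gave 1 higher and 3 lower (12.2 and 6.68% of all genes). Leaving out AngII numbers 1, 3 and 6, also chosen then, gave a members' median of -0.13, beside -0.04 over all genes. DESeq2 called 2 in vehicle (4.29% of all genes). At 5 mg the members' median was -0.06 without numbers 4 and 12, beside 0.08 over all genes. At 50 mg the count of 1 (5.42% of all genes) became 5 with DESeq2 (13.6%) and 5 without a filter (8.97%). It was 2 at 1 CPM (11.8%) and 2 with only the groups compared (12.5%). On either TPM scale it was 0 (0.126 and 0.582%), as with the GC trend removed (4.92%). The members' median at 50 mg was 0.15 without numbers 4 and 12, beside 0.12 over all genes. It was 0.002 without numbers 1, 3 and 6, beside -0.02. Gastrodin and interaction counts were 0 in every alternative run. Cox5a turned to 0.003 on both TPM scales. The log2 ratio difference was 0.587 to 0.762 for Cox7a1/Cox7a2, 0.521 to 0.771 for Cox6a2/Cox6a1 and 0.487 to 0.756 for Cox8b/Cox8a with 1 library left out, with an adjusted exact permutation p under 0.05 in 3 of 12 such sets for Cox6a2/Cox6a1 and in 1 of 12 for Cox8b/Cox8a. It was 0.555 for Cox7a1/Cox7a2 without numbers 1, 3 and 6 and 0.642 for Cox6a2/Cox6a1 without numbers 4 and 12 (adjusted exact permutation p = 0.0595 and 0.0397). The cause of these shifts was not tested. With 2 libraries a group, standard errors had a median of 0.34 for members in vehicle, which limits what a single dose can show.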

Other observations

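Further members did not pass the test in AngII against sham; those named here were picked after their values were seen, and Cox7a1, Uqcrfs1 and Atp5g2 lay nearer the threshold. Uqcrq, a small subunit of complex III beside cytochrome b, had a log2 fold change of 0.63 ± 0.23 SE (edgeR adjusted p = 0.0684), and Cox5b, a zinc-binding subunit of complex IV, 0.52 ± 0.23 SE (edgeR adjusted p = 0.117). Sdhd, a membrane anchor of complex II, had -0.63 ± 0.24 SE (edgeR adjusted p = 0.0809). The testis form Cox6b2 ranged from 0 to 1.73 TPM over the 12 libraries.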
